A study of Mus musculus with 12 samples.

Results

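The Slc25 genes encode the mitochondrial carrier family. They were followed across whole-kidney RNA sequencing of 12 mice. Members were taken as every gene of the count table whose Ensembl identifier maps to a protein-coding mouse symbol beginning with Slc25a, which gave 47 genes of 28991 in the table. Of these, 43 passed the filter on low counts and were tested. The other 4 (Slc25a2, Slc25a31, Slc25a41 and Slc25a54) reached at most 7 counts in any library and were not tested. All animals were male BALB/c mice aged 8 weeks, 3 to a group, and received intraperitoneal injections. Combination mice received dichloroacetate at 250 mg per kg for 5 days and then 1 dose of cisplatin at 20 mg per kg together with dichloroacetate. Cisplatin mice received the same cisplatin dose after 5 days of saline. Kidneys of both groups were taken 24 h after cisplatin. Dichloroacetate mice received that drug alone at 250 mg per kg daily for 6 days, and saline mice received saline for 6 days. Cisplatin is a platinum chemotherapy drug that injures the kidney tubule, and dichloroacetate is an inhibitor of the pyruvate dehydrogenase kinases.

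Mitochondrial carriers are small proteins of the inner mitochondrial membrane. They swap or import the molecules that the organelle and the cytosol share, such as ADP and ATP, phosphate, di- and tricarboxylic acids, amino acids, cofactors and iron. Nuclear genes encode them, and they reach the inner membrane through the outer membrane TOM pore, the small TIM chaperones and the TIM22 complex. The proximal tubule of the kidney is rich in mitochondria and relies on these carriers for oxidative metabolism, ammonia production and glucose synthesis. Members of the family are described below by the substrate they are known to carry.

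Library totals ran from 29505929 to 35082408 counts in combination mice, 29614283 to 35925471 in cisplatin mice, 41525403 to 62237514 in dichloroacetate mice and 38236592 to 55832441 in saline mice. Levels are given as CPM on TMM-scaled library totals. Summed over 10 kidney markers (proximal tubule, loop of Henle, distal tubule, collecting duct and podocyte genes), the level was 4690 to 5400 CPM in combination mice, 3400 to 4160 in cisplatin mice, 9310 to 9760 in dichloroacetate mice and 9910 to 10800 in saline mice. Of these 10 markers, 8 fell with cisplatin relative to saline, where 30.4% of all genes fell. Most of the sum in saline mice was Slc34a1, Umod, Lrp2 and Slc12a1, which averaged 3720, 2250, 2050 and 1160 CPM there. The sum thus says little about the other segments. The 2 not called were Aqp2 (257 CPM in cisplatin mice, 273 in saline mice) and Nphs1 (15 and 16.4). Summed leukocyte markers (5 genes) were at 9.91 to 11.8 CPM in combination mice, 30.5 to 48.4 in cisplatin mice, 8.11 to 11.9 in dichloroacetate mice and 8.54 to 11.5 in saline mice. Most of the sum in cisplatin mice was Cd68, which averaged 33.1 CPM there and 2.04 CPM in saline mice. Of 4 leukocyte markers tested for cisplatin against saline, 2 rose and 2 fell. Those that fell were Ptprc and Adgre1, with log2 changes of -0.38 and -0.57. Over the 12 libraries the summed markers of skeletal muscle reached at most 0.217 CPM, those of adipocytes 4.52 CPM, adrenal gland 5.87 CPM and liver 7.88 CPM, and the spermatogenic marker 0.0272 CPM. The adrenal and liver maxima were both those of saline replicate 2. Adipocyte sums were 0.853 to 4.52 CPM in combination mice and 2.41 to 3.67 in cisplatin mice. They were 0.0995 to 2.53 CPM in dichloroacetate mice and 0.307 to 0.376 in saline mice. Of 3 adipocyte markers tested for cisplatin against saline, 1 rose and 2 were not called. The part of these marker shifts in the carrier changes was not tested. In whole-kidney RNA, fewer cells of a type and less RNA per cell cannot be told apart.

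The promoters of 4 members that the results turn on are printed here, the 3 whose levels fell most with cisplatin and the 1 that rose most. They are RefSeq windows on build GRCm38.p6, 250 bases before to 50 bases after an annotated start site, read 5′ to 3′ on the gene's strand. Capitals mark the E-box CACGTG and the CCAAT box, which was also searched in its reverse form ATTGG. The window of Slc25a21 nearest the 5′ end of the gene lies at chr12:57197423-57197722 (minus strand), Slc25a48 at chr13:56438105-56438404 (plus strand), Slc25a13 at chr6:6217124-6217423 (minus strand) and Slc25a30 at chr14:75786988-75787287 (minus strand).
Slc25a21: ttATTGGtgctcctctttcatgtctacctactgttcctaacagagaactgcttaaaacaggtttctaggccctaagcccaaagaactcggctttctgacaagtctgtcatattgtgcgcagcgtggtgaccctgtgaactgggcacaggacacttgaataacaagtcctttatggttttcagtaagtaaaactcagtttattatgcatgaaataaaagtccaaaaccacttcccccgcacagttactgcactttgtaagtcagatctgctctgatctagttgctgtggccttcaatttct
Slc25a48: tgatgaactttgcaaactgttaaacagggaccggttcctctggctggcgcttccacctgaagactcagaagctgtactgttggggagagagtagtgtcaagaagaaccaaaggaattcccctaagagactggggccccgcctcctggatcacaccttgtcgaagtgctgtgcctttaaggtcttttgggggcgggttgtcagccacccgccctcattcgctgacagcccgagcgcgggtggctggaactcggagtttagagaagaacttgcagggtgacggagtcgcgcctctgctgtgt
Slc25a13: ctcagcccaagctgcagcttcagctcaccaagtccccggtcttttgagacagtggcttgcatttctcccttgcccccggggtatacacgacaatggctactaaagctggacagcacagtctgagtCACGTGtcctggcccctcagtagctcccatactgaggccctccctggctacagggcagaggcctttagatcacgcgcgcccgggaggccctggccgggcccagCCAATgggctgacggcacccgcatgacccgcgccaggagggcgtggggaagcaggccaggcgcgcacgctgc
Slc25a30: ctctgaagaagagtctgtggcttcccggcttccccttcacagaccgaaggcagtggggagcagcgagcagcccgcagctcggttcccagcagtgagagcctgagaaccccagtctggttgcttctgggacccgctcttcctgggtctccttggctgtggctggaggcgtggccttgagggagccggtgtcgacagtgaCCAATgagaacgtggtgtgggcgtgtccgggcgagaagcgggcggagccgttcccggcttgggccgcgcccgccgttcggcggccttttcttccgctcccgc
In these windows the E-box was found in Slc25a13, at -125 from the start site. The CCAAT box was found at -22 in Slc25a13, at -52 in Slc25a30 and, in reverse, at -248 in Slc25a21, and neither motif was found in Slc25a48. Slc25a21 has a further start site with a window at chr12:57160594-57160893, not printed, which holds neither motif. Windows were given for 36 of the 47 members, 46 windows in all. The E-box was in 8 of these 46 (17.4%) and in 7.15% of all 32851 windows. The CCAAT box, on either strand, was in 22 of 46 (47.8%) and in 37.4% of all windows. The motifs share no bases in the windows shown and were chosen after the expression values were seen, so these shares are descriptions only.

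Carrier levels spanned several orders of magnitude. Scaled to exon length, so that genes can be compared, the highest level over all 12 libraries was that of Slc25a5, the ADP/ATP carrier ANT2, at 505 CPM per kb. Slc25a39, a glutathione carrier, followed at 190 CPM per kb, and Slc25a3, the phosphate carrier that feeds ATP synthase, at 133 CPM per kb. Exon length here is the union of all annotated exons of a gene, 5.55 kb for Slc25a3 and 2.76 kb for Slc25a39. Without this scaling Slc25a3 stood above Slc25a39, at 696 and 542 CPM in saline mice, so their order depends on the length used. Next came Slc25a10, the dicarboxylate carrier, at 107 CPM per kb, Slc25a4, the ADP/ATP carrier ANT1, at 97.5 CPM per kb, and Slc25a11, the oxoglutarate/malate carrier, at 67.7 CPM per kb. The order of the members in this list differed between groups. Slc25a10 averaged 103 CPM per kb in combination mice, 50.8 in cisplatin mice, 134 in dichloroacetate mice and 139 in saline mice, so that in cisplatin mice it stood below Slc25a4, which averaged 80.7 CPM per kb there. The family as a whole summed to 4485 to 4846 CPM in combination mice, 3701 to 3881 in cisplatin mice, 4969 to 5105 in dichloroacetate mice and 4572 to 5156 in saline mice. Cisplatin mice stood below the other 3 groups with no overlap. Without TMM scaling, the family's share of each library was 0.441% to 0.469% under saline and 0.426% to 0.432% under cisplatin alone. It was 0.456% to 0.461% under dichloroacetate alone and highest under the combination, at 0.471% to 0.494%. Cisplatin mice were again lowest with no overlap, but the size of the gap and the order of the other groups depended on the scaling. Slc25a5 and Slc25a4, which exchange ADP for ATP, kept a close ratio. Per kb of exon, Slc25a5 stood at 5.07, 4.78 and 5.55 times the level of Slc25a4 in combination mice, 4.86, 4.7 and 4.89 times in cisplatin mice, 5.38, 5.4 and 5.68 times in dichloroacetate mice and 4.97, 5.05 and 5.36 times in saline mice. At the low end, the glutamate carrier Slc25a18 averaged 0.338 CPM in saline mice. Among the 4 untested members, Slc25a31, the ADP/ATP carrier of male germ cells, had 0 to 6 counts a library, and Slc25a2, the second ornithine carrier, had 1 to 7.

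**Figure D1:**
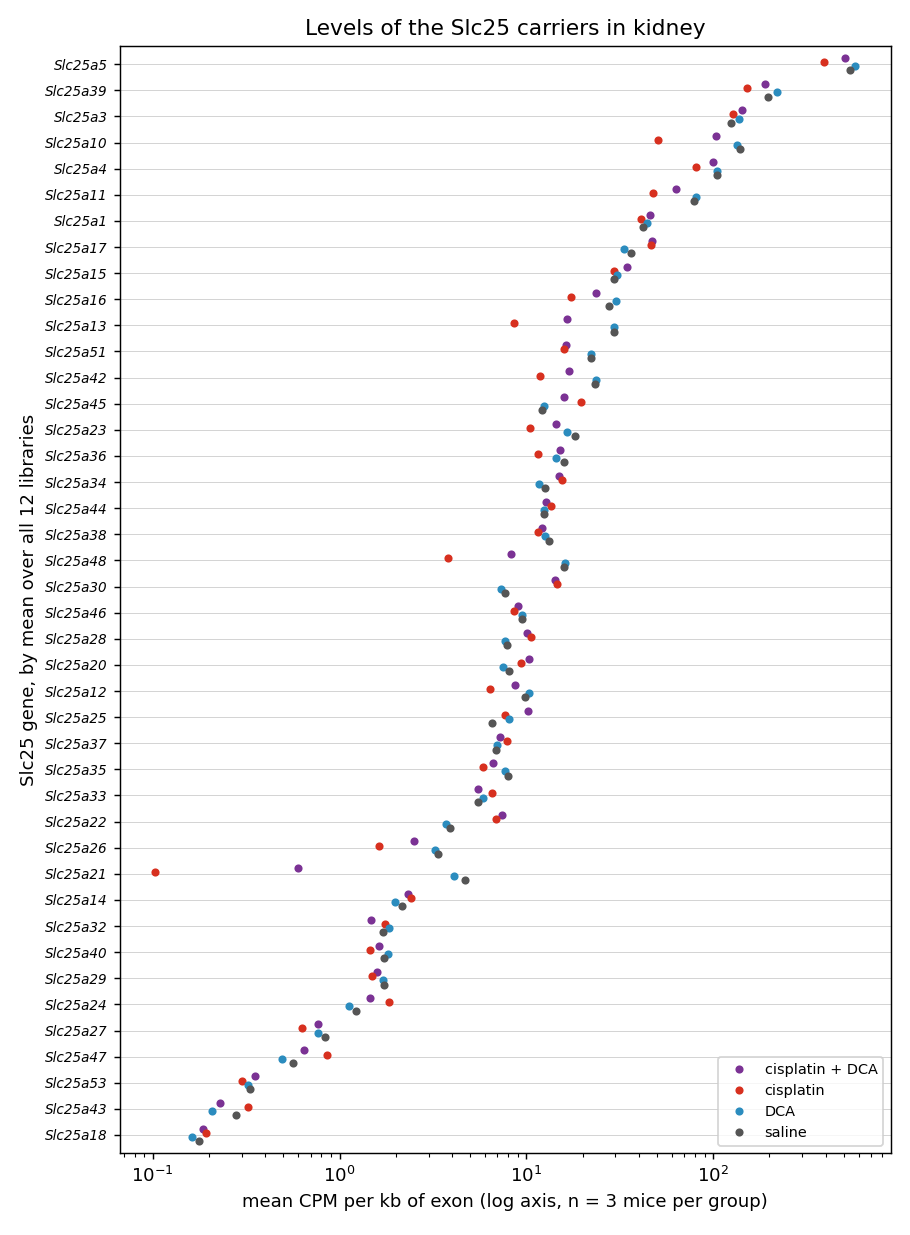
Level of the tested members reported here as the mean CPM per kb of exon on a log axis, 1 point for each group (DCA is dichloroacetate, cisplatin + DCA the combination), with members ordered by their mean over all libraries. The top member, Slc25a5, averaged 390 CPM per kb in cisplatin mice and 540 in saline mice, and the point of Slc25a21 in cisplatin mice lies far to the left of its other 3.

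Cisplatin alone changed most of the family. The comparison with saline asks what the injury does to carrier expression. Of 43 members, 20 fell, 11 rose and 12 were not called, which is 72.1% called. Over all 20370 genes, 60.1% were called (30.4% lower and 29.7% higher). The median log2 fold change was -0.14 over the members, against -0.01 over all genes, and members ran from -5.47 to 0.92. Adjusted p values are from the edgeR quasi-likelihood test over all genes, and a gene was called below 0.05. The 5 deepest falls were those of Slc25a21, Slc25a48, Slc25a13, Slc25a10 and Slc25a26, and the 3 largest rises those of Slc25a30, Slc25a22 and Slc25a45. Some of the smallest calls depended on single libraries. Slc25a46 lost its call in 4 of 12 fits that each left out 1 library, as did Slc25a20, and Slc25a24, Slc25a33 and Slc25a38 in 3 of 12 each. The libraries concerned were saline replicates 1 and 2 and cisplatin replicates 2 and 3 for Slc25a46 and Slc25a20, and saline replicates 2 and 3 and cisplatin replicate 3 for Slc25a24. Slc25a46 also lost its call with no filter on low counts and in a fit of the 2 groups only. For Slc25a33 they were saline replicates 1 and 2 and cisplatin replicate 1, and for Slc25a38 saline replicates 2 and 3 and cisplatin replicate 1.

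**Figure D2:**
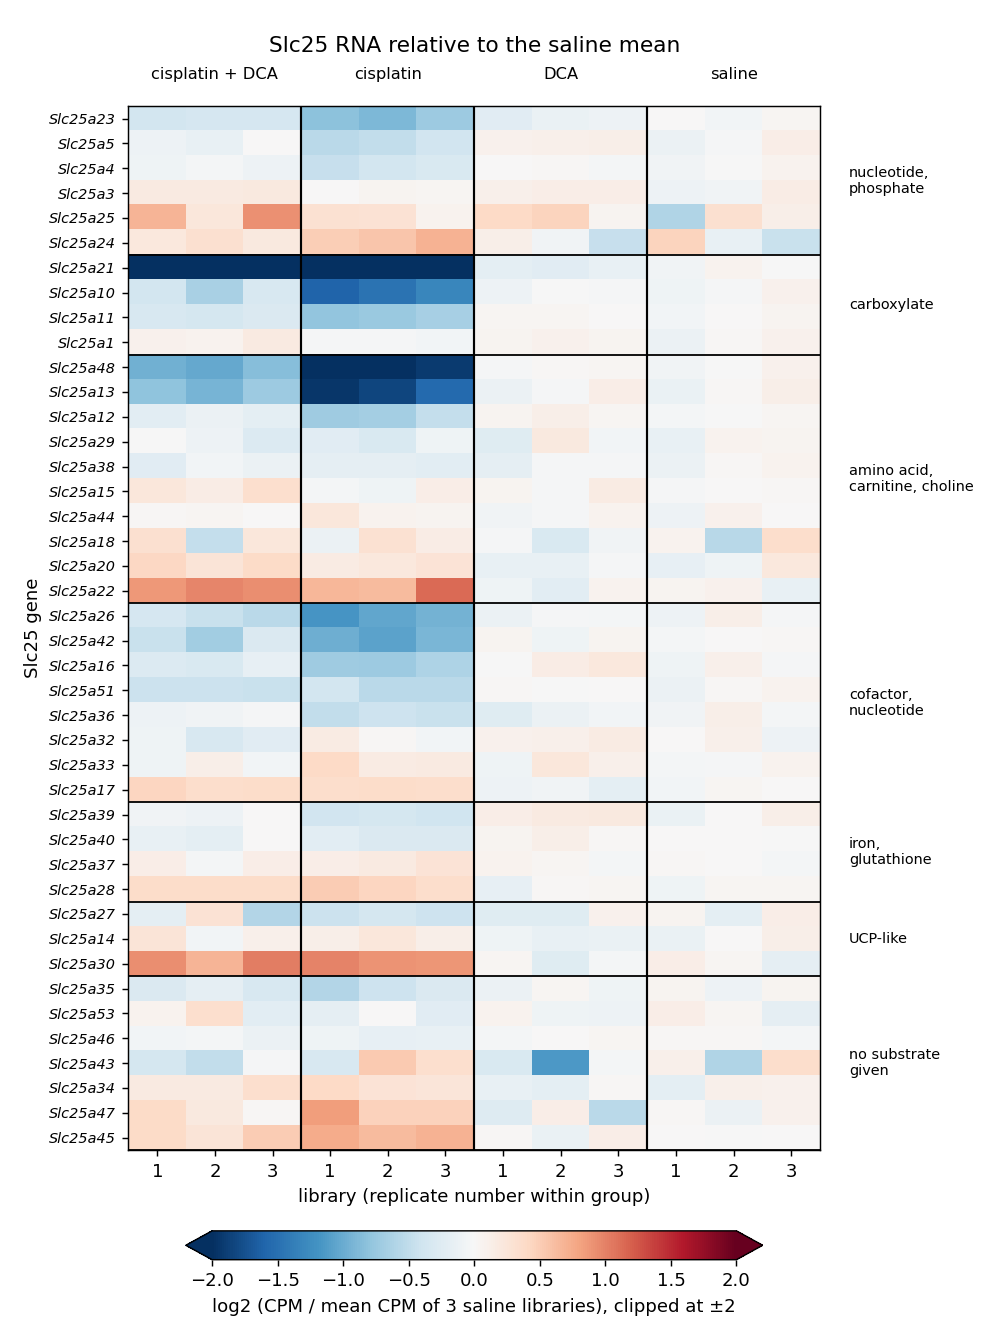
Log2 ratio of CPM in each library to the mean of the 3 saline libraries for the tested members reported here, grouped by substrate class, with colours clipped at 2 log2 units either way (DCA is dichloroacetate). Slc25a21, Slc25a48, Slc25a13 and Slc25a10 are the deepest blue in the 3 cisplatin libraries, Slc25a30 and Slc25a22 are red in both cisplatin-injected groups, and the dichloroacetate libraries stay pale apart from low-count members such as Slc25a43.

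Carriers of di- and tricarboxylic acids held the deepest fall. Of 4 members, 3 fell and none rose, with a median of -1.09. That is 75% called, against 60.1% of all genes (30.4% lower and 29.7% higher). Slc25a21 carries oxodicarboxylates, 2-oxoadipate from lysine and tryptophan breakdown among them, and lies at 12:56712634-57197472 in mm10. It had 0.341, 0.386 and 0.775 CPM in cisplatin mice, against 21.9, 24.1 and 22.7 in saline mice. The cisplatin values rest on 12, 13 and 31 counts. All cisplatin libraries lay far below all saline libraries, a log2 change of -5.47 (SE 0.20, adjusted p = 1.4e-10), so that cisplatin mice kept 2.19% of the saline mean. Slc25a10 exchanges malate or succinate for phosphate and supplies gluconeogenesis. It had 159, 172 and 195 CPM in cisplatin mice, against 454, 474 and 511 in saline mice, a log2 change of -1.45 (SE 0.09, adjusted p = 1.5e-08) with no overlap. Slc25a11, which moves malate in exchange for oxoglutarate in the malate-aspartate shuttle, had 97.1, 99.9 and 106 CPM in cisplatin mice, against 161, 169 and 174 in saline mice, a log2 change of -0.73 (SE 0.05, adjusted p = 4.9e-08), again with no overlap. The citrate carrier Slc25a1, which exports citrate for lipid synthesis, was the exception: it averaged 89.4 ± 1 CPM in cisplatin mice and 91.4 ± 6.16 CPM in saline mice (SD, n = 3 each), a log2 change of -0.03 (SE 0.06, adjusted p = 0.66).

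Amino acid and carnitine carriers moved in both directions. Of 10 tested, 4 fell, 2 rose and 4 were not called, with a median of -0.09. That is 60% called, close to the 60.1% of all genes. Slc25a48, a choline carrier, had 12.7, 11.5 and 14.4 CPM in cisplatin mice, against 51.4, 53.7 and 57.4 in saline mice, all cisplatin libraries below all saline libraries, and a log2 change of -2.07 (SE 0.08, adjusted p = 1.5e-10). Slc25a13 and Slc25a12 encode citrin and aralar, the aspartate/glutamate carriers of the malate-aspartate shuttle, and lie at 6:6041218-6217173 and 2:71271063-71367749. Slc25a13 had 28.7, 31 and 37.7 CPM in cisplatin mice, against 101, 113 and 121 in saline mice, a log2 change of -1.78 (SE 0.11, adjusted p = 9.7e-09). Slc25a12 had 44, 45.1 and 51.5 CPM in cisplatin mice, against 70.1, 71.8 and 73.8 in saline mice, a log2 change of -0.62 (SE 0.06, adjusted p = 1.3e-06). The groups did not overlap for either gene. Per kb of exon, Slc25a13 stood at 1.26, 1.33 and 1.41 times the level of Slc25a12 in cisplatin mice, against 2.78, 3.04 and 3.17 times in saline mice, so the ratio of citrin to aralar was lower in every cisplatin library. Slc25a38, the glycine carrier of haem synthesis, fell by 0.19 on the log2 scale (SE 0.06, adjusted p = 0.018). Slc25a22, a glutamate importer, went the other way. It had 36.8, 36.3 and 51 CPM in cisplatin mice, against 24.1, 24.7 and 21.1 in saline mice, a log2 change of 0.83 (SE 0.12, adjusted p = 3.4e-05) with no overlap. Slc25a20, the carnitine/acylcarnitine carrier through which fatty acids enter for oxidation, rose by 0.22 (SE 0.08, adjusted p = 0.036). The ornithine carrier Slc25a15, the basic amino acid carrier Slc25a29, the branched-chain amino acid carrier Slc25a44 and the glutamate carrier Slc25a18 were not called, at log2 fold changes of 0.00, -0.20, 0.12 and 0.15.

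Of 9 cofactor and nucleotide carriers, 6 fell, 2 rose and 1 was not called, with a median of -0.48. Over all genes 30.4% were called lower and 29.7% higher, and no test set the class against the rest. Slc25a26 imports S-adenosylmethionine, the methyl donor, and had 7.18, 7.9 and 8.37 CPM in cisplatin mice, against 15.1, 17.5 and 16 in saline mice, a log2 change of -1.05 (SE 0.08, adjusted p = 1.4e-07). Slc25a42 imports coenzyme A and had 71, 66.6 and 73.9 CPM in cisplatin mice, against 137, 140 and 143 in saline mice, a log2 change of -0.99 (SE 0.09, adjusted p = 3.6e-07). For both, every cisplatin library lay below every saline library. Slc25a16, also linked to coenzyme A transport, fell by 0.68 (SE 0.07, adjusted p = 1.8e-06), the NAD carrier Slc25a51 by 0.48 (SE 0.06, adjusted p = 1.3e-05) and the pyrimidine nucleotide carrier Slc25a36 by 0.45 (SE 0.06, adjusted p = 2.7e-05). Its counterpart Slc25a33, a second pyrimidine nucleotide carrier, rose by 0.25 (SE 0.10, adjusted p = 0.039). Slc25a17, a carrier of the peroxisomal rather than the mitochondrial membrane, had 132, 133 and 132 CPM in cisplatin mice, against 99.7, 106 and 104 in saline mice, a log2 change of 0.36 (SE 0.05, adjusted p = 2.9e-05) with no overlap. The folate and flavin carrier Slc25a32 was not called, with a log2 change of 0.05.

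Nucleotide and phosphate carriers moved in both directions, also within the calcium-regulated kind. Of 6 tested, 3 fell, 1 rose and 2 were not called (66.7% called, near the 60.1% of all genes). Slc25a23, a calcium-regulated ATP-Mg/phosphate carrier, had 54.8, 52.1 and 58.5 CPM in cisplatin mice, against 97.6, 93.4 and 100 in saline mice, a log2 change of -0.81 (SE 0.06, adjusted p = 4.1e-08). Its paralogue Slc25a24, of the same calcium-regulated kind, had 5.9, 6.18 and 6.82 CPM in cisplatin mice, against 5.69, 3.8 and 3.08 in saline mice, a log2 change of 0.58 (SE 0.19, adjusted p = 0.016). Slc25a23 thus fell and Slc25a24 rose, with no overlap of groups in either, while their relative Slc25a25 was not called at 0.22 (SE 0.21, adjusted p = 0.37). The ADP/ATP carriers fell by less: Slc25a5 had 611, 634 and 683 CPM in cisplatin mice, against 824, 873 and 971 in saline mice, a log2 change of -0.47 (SE 0.07, adjusted p = 3.1e-05), and Slc25a4 fell by 0.38 (SE 0.05, adjusted p = 3.3e-05). Slc25a3 was at 0.03 (SE 0.06, adjusted p = 0.67), with levels of 702, 719 and 714 CPM in cisplatin mice, against 647, 666 and 775 in saline mice.

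The remaining classes were small. Both mitoferrins, which import iron, rose: Slc25a28 had 42.1, 39.6 and 37.7 CPM in cisplatin mice, against 27.9, 30.2 and 30.4 in saline mice, a log2 change of 0.43 (SE 0.06, adjusted p = 3.9e-05), and Slc25a37 rose by 0.19 (SE 0.06, adjusted p = 0.010). Slc25a37 and Slc25a38 are used heavily in red cell precursors. Summed erythroid markers (6 genes) were at 70.1 to 131 CPM in cisplatin mice, against 237 to 517 CPM in saline mice, and their part in these values was not tested. The glutathione carriers fell, Slc25a39 by 0.37 (SE 0.06, adjusted p = 1.0e-04) and Slc25a40 by 0.26 (SE 0.07, adjusted p = 0.0040). Among carriers resembling uncoupling proteins, Slc25a30, the kidney mitochondrial carrier KMCP1 at 14:75760117-75787037, had 69.6, 65.6 and 64.6 CPM in cisplatin mice, against 38.5, 35.9 and 31 in saline mice. The groups stood well apart, a log2 change of 0.92 (SE 0.10, adjusted p = 2.4e-06), or 1.89-fold. Slc25a14 and Slc25a27 were not called, at 0.15 and -0.39. Of 7 members with no substrate assigned here, 3 rose, 2 fell and 2 were not called (71.4% called, against 60.1% of all genes). Slc25a45 had 56.3, 52.4 and 54.8 CPM in cisplatin mice, against 33.8, 33.7 and 33.8 in saline mice, with no overlap and a log2 change of 0.69 (SE 0.07, adjusted p = 2.2e-06). Slc25a47 rose by 0.60 (SE 0.18, adjusted p = 0.0095) and Slc25a34 by 0.30 (SE 0.08, adjusted p = 0.0064). Slc25a35 fell by 0.43 (SE 0.08, adjusted p = 2.9e-04) and Slc25a46, an outer membrane protein of mitochondrial shape, by 0.13 (SE 0.05, adjusted p = 0.022). Slc25a43 and Slc25a53 were not called, at 0.25 and -0.14.

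**Figure D3:**
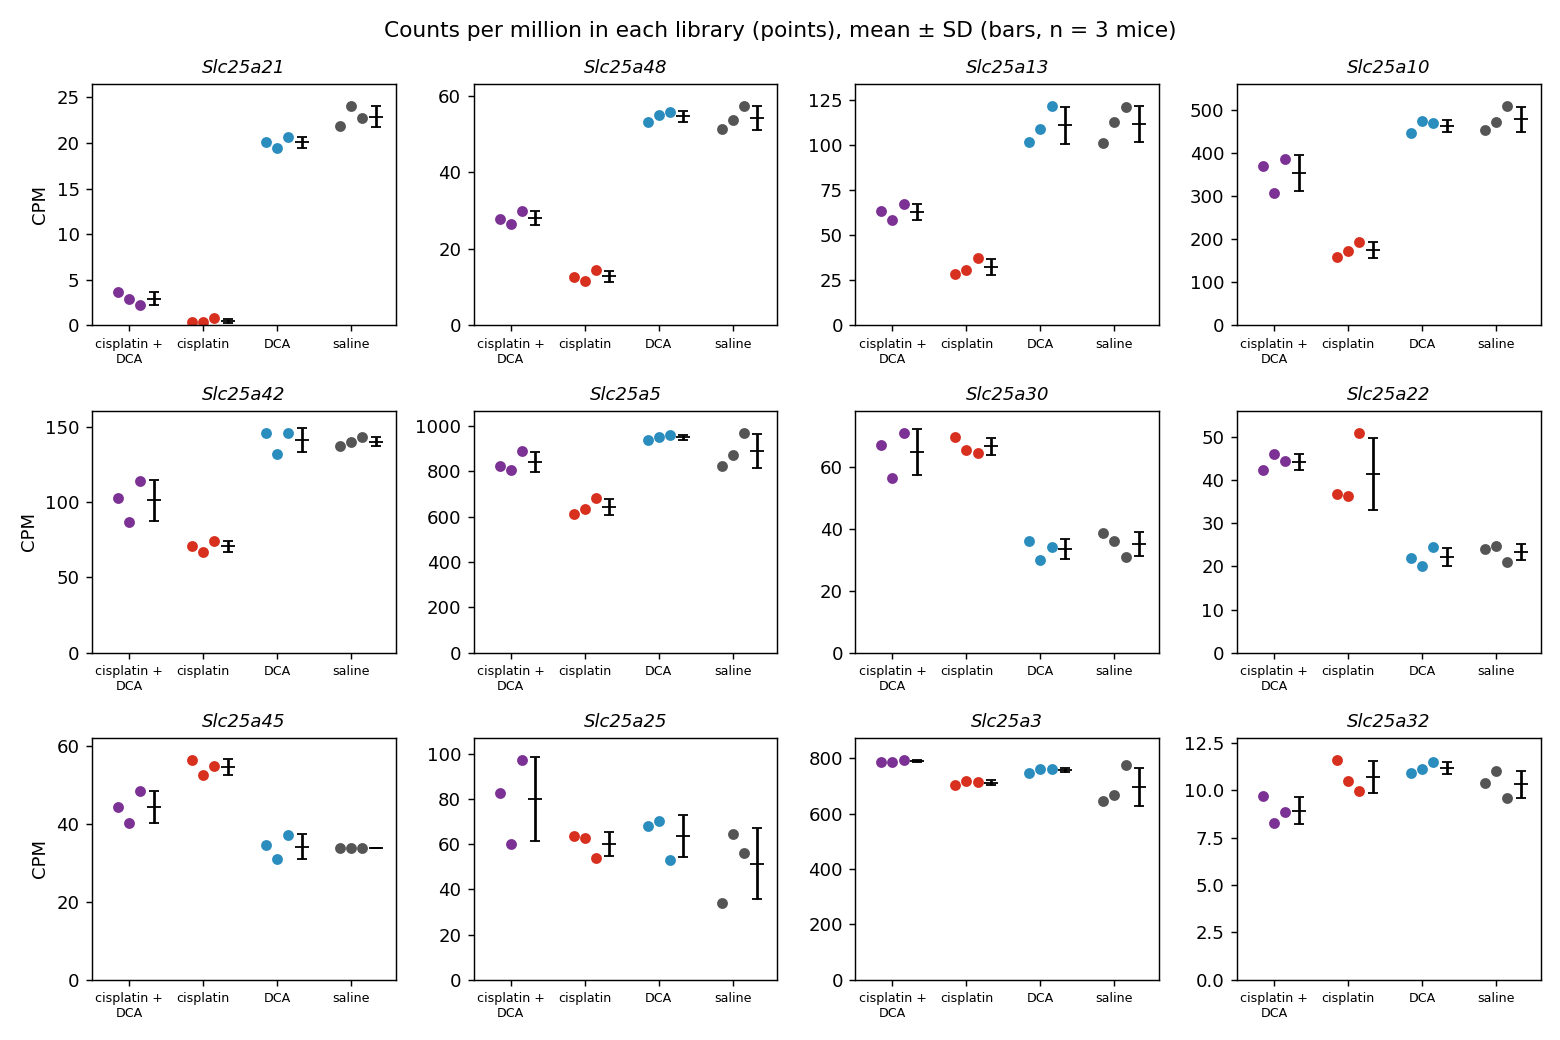
CPM of 12 members in each library (points) with the group mean and SD (bars, n = 3 mice), for combination (cisplatin + DCA), cisplatin, dichloroacetate (DCA) and saline mice from left to right. Slc25a21, Slc25a48, Slc25a13 and Slc25a10 were lowest in all 3 cisplatin mice, and the combination mice lay between these and the mice without cisplatin, while Slc25a30 was high in both cisplatin-injected groups.

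Dichloroacetate alone called no carrier. In the comparison with saline, 0 of 43 members passed the test with edgeR, DESeq2 or limma, and 0.309% of all genes were called with edgeR. At an unadjusted p below 0.05 there were 4 members with edgeR, 4 with DESeq2 and 3 with limma. The nearest to a call was Slc25a39, at 597, 612 and 621 CPM in dichloroacetate mice, against 494, 547 and 585 in saline mice. Every dichloroacetate library was above every saline library, but the log2 change of 0.17 (SE 0.06) had an adjusted p of 0.26. Slc25a23 was at -0.15 (SE 0.06, adjusted p = 0.30), Slc25a17 at -0.13 (SE 0.05, adjusted p = 0.33) and Slc25a36 at -0.13 (SE 0.06, adjusted p = 0.42). The members' median was -0.01, with a range of -0.39 to 0.31.

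After cisplatin, dichloroacetate pretreatment went with higher levels of many carriers. The combination was set against cisplatin to ask how far the pretreatment altered the response. Of 43 members, 16 were higher in combination mice, 2 lower and 25 not called, which is 41.9% called. Over all genes 31.6% were called, 18.1% higher and 13.5% lower. The median log2 fold change was 0.15 over the members, against 0.01 over all genes. Slc25a21 had 3.64, 2.88 and 2.22 CPM in combination mice, against 0.341, 0.386 and 0.775 in cisplatin mice. The groups did not overlap, and the log2 fold change was 2.50 (SE 0.24, adjusted p = 1.1e-05), or 5.64-fold. Slc25a48 had 27.8, 26.5 and 30 CPM in combination mice, against 12.7, 11.5 and 14.4 in cisplatin mice, a log2 change of 1.12 (SE 0.08, adjusted p = 1.5e-06). Slc25a10 had 371, 307 and 386 CPM in combination mice, against 159, 172 and 195 in cisplatin mice, a log2 change of 1.01 (SE 0.09, adjusted p = 6.0e-06). Slc25a13 had 63.4, 58.3 and 67.3 CPM in combination mice, against 28.7, 31 and 37.7 in cisplatin mice, a log2 change of 0.96 (SE 0.10, adjusted p = 2.7e-05). For each of these 3 genes all combination libraries were above all cisplatin libraries. Slc25a26 and Slc25a42 followed at 0.61 (SE 0.08, adjusted p = 1.3e-04) and 0.52 (SE 0.09, adjusted p = 4.3e-04). The other 10 that were higher had log2 fold changes of 0.23 to 0.47, Slc25a23, Slc25a12, Slc25a16, Slc25a11, Slc25a5, Slc25a36, Slc25a39, Slc25a4 and Slc25a15 among them. By class, the higher ones were 3 of 4 carboxylate carriers, 5 of 9 cofactor and nucleotide carriers, 4 of 10 amino acid and carnitine carriers, 3 of 6 nucleotide and phosphate carriers and 1 of 4 iron and glutathione carriers. The 2 that were lower in combination mice were Slc25a45, at -0.30 (SE 0.07, adjusted p = 0.0060), and Slc25a32, at -0.26 (SE 0.09, adjusted p = 0.034). Slc25a32 lost its call without cisplatin replicate 1 or 2 or combination replicate 2 or 3, and Slc25a15 without cisplatin replicate 1 or 2 or combination replicate 1 or 3. This comparison and that of cisplatin with saline share the cisplatin mice.

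The interaction tests whether the response to cisplatin differed with dichloroacetate, as the log2 response in dichloroacetate-treated mice (combination minus dichloroacetate) minus that in the others (cisplatin minus saline). It was called for 16 of 43 members, 14 positive and 2 negative (37.2%), against 18.6% of all genes (11.4% positive and 7.15% negative). The 8 largest were all positive. In Slc25a21 the difference in log2 response was 2.68 (SE 0.28, adjusted p = 7.5e-05): the log2 fold change was -2.79 in combination against dichloroacetate mice and -5.47 in cisplatin against saline mice. In Slc25a48 it was 1.11 (SE 0.10, adjusted p = 6.3e-05), in Slc25a10 1.06 (SE 0.13, adjusted p = 1.5e-04) and in Slc25a13 0.96 (SE 0.15, adjusted p = 7.3e-04). Slc25a26 gave 0.67 (SE 0.12, adjusted p = 0.0015), Slc25a23 0.63 (SE 0.08, adjusted p = 2.4e-04), Slc25a36 0.52 (SE 0.09, adjusted p = 0.0013) and Slc25a42 0.51 (SE 0.12, adjusted p = 0.010). These 8 all fell with cisplatin in mice without dichloroacetate. The interaction subtracts that change, so a fall there and a positive value share libraries and are not independent. Smaller positive differences included those of Slc25a11 (0.39), Slc25a12 (0.37), Slc25a16 (0.32), Slc25a4 (0.30) and Slc25a5 (0.29). Negative ones were called for Slc25a32 (-0.37) and Slc25a45 (-0.32). Several of the calls close to the threshold were not stable to leaving out 1 library: that of Slc25a45 was lost in 10 of 12 such fits, those of Slc25a5 and Slc25a32 in 9 and that of Slc25a16 in 7, while that of Slc25a4 was lost without cisplatin replicate 1. No such fit called both negative members. The call of Slc25a45 was kept without dichloroacetate replicate 2 or combination replicate 3, that of Slc25a32 without saline replicate 2, cisplatin replicate 3 or combination replicate 1, and that of Slc25a5 without saline replicate 1, cisplatin replicate 3 or combination replicate 2. With RLE size factors, Slc25a16 had an adjusted p of 0.058 and Slc25a5 one of 0.066.

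**Figure D4:**
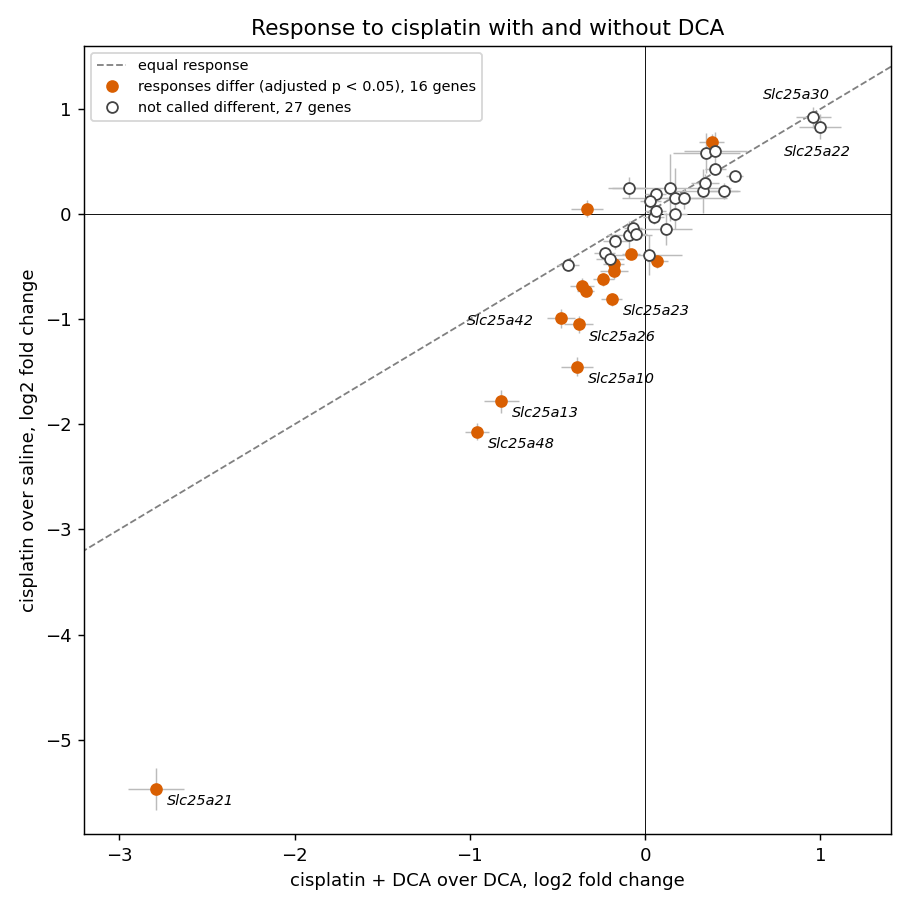
Log2 fold change of the combination over dichloroacetate (DCA, horizontal axis) and of cisplatin over saline (vertical axis) for each tested member, with SE as grey bars and the line of equal response dashed. Of the 16 members called for the interaction (filled), the 14 positive ones lie below the line, Slc25a21 at -2.79 and -5.47 among them, while Slc25a30 and Slc25a22 lie close to it.

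Among the 11 carriers that rose with cisplatin, the interaction was called for 1, Slc25a45 (negative), and not for the other 10. Over all genes 7.15% had a negative call and 11.4% a positive one, so this count does not set the risen carriers apart. The call of Slc25a45 was itself lost in 10 of 12 fits that each left out 1 library. Slc25a30 had 67.1, 56.5 and 71 CPM in combination mice, against 36.2, 29.8 and 34.2 in dichloroacetate mice, a log2 change of 0.96 (SE 0.10, adjusted p = 4.8e-06). Its interaction was 0.04 (SE 0.14, adjusted p = 0.90). Slc25a22 had 42.3, 46 and 44.5 CPM in combination mice, against 21.9, 20.2 and 24.5 in dichloroacetate mice, a log2 change of 1.00 (SE 0.12, adjusted p = 1.7e-05), with an interaction of 0.17 (SE 0.16, adjusted p = 0.54). A difference between the responses was therefore not detected for either gene, which does not show that the responses were equal. In the combination against dichloroacetate, 7 members rose, 15 fell and 21 were not called (51.2%), against 40.7% of all genes (21.5% higher and 19.2% lower). That comparison shares no library with cisplatin against saline. Of the 20 members that fell in cisplatin against saline, 14 also fell there and 6 were not called, and of the 11 that rose, 7 also rose and 4 were not called. This overlap was counted for the members only, not over all genes, so it does not set them apart. Across the 43 members the 2 responses had a Spearman correlation of 0.90 and a Pearson correlation of 0.96, given as a description across genes, which are not independent replicates. The response was smaller in size with dichloroacetate in 31 of 43 members (72.1%), close to the 71.5% of all 20370 genes.

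Combination mice were not at saline levels for many carriers. Against saline, 12 members fell, 10 rose and 21 were not called (51.2%), where 40.2% of all genes were called (20.6% higher and 19.6% lower). Without combination replicate 3 the number higher was 6. As a share of the saline mean, Slc25a21 was at 12.7% in combination mice and 2.19% in cisplatin mice. The same shares were 51.9% and 23.8% for Slc25a48, 56.8% and 29.3% for Slc25a13 and 73.8% and 36.5% for Slc25a10. For the ADP/ATP carriers they were 94.6% and 72.2% (Slc25a5) and 94.3% and 76.9% (Slc25a4), and neither was called in combination against saline. Per kb of exon, Slc25a13 stood at 1.96, 1.71 and 2.07 times Slc25a12 in combination mice, above every cisplatin library and below every dichloroacetate library, which had 2.63, 2.70 and 3.21. Slc25a51, the NAD carrier, had 90.7, 90.7 and 89.7 CPM in combination mice, 94.6, 83.6 and 83.9 in cisplatin mice, 124, 121 and 122 in dichloroacetate mice and 113, 124 and 128 in saline mice. Both cisplatin-injected groups lay below both others, and the log2 change of combination against cisplatin was 0.05 (SE 0.06, adjusted p = 0.61). The 10 higher than in saline mice were Slc25a22 (0.92), Slc25a30 (0.88), Slc25a25 (0.64), Slc25a45 (0.39), Slc25a17 (0.38), Slc25a28 (0.37), Slc25a20 (0.35), Slc25a15 (0.24), Slc25a34 (0.24) and Slc25a3 (0.18). The call of Slc25a25 was lost without saline replicate 1, which was at 33.9 CPM, and without combination replicate 1 or 3. That of Slc25a34 was lost without the same 3 libraries and with RLE size factors, DESeq2 or limma, that of Slc25a3 without saline replicate 1 or 2 or any combination replicate, and that of Slc25a15 without combination replicate 3.

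The 4 members with a genomic span of 90 kb or more, a threshold set after the values were seen, all fell with cisplatin. They were Slc25a21 (485 kb), Slc25a13 (176 kb), Slc25a26 (104 kb) and Slc25a12 (96.7 kb), with a median log2 change of -1.42. Among the 39 shorter members 11 rose and 16 fell, with a median of -0.03, and Slc25a48 was the lowest at -2.07. Over the 43 members, log10 span and log2 fold change had a Pearson correlation of -0.44 but a Spearman correlation of -0.08. Over 19824 tested genes with a position these were -0.20 and -0.27. The part of gene length in the changes was not tested.

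**Figure D5:**
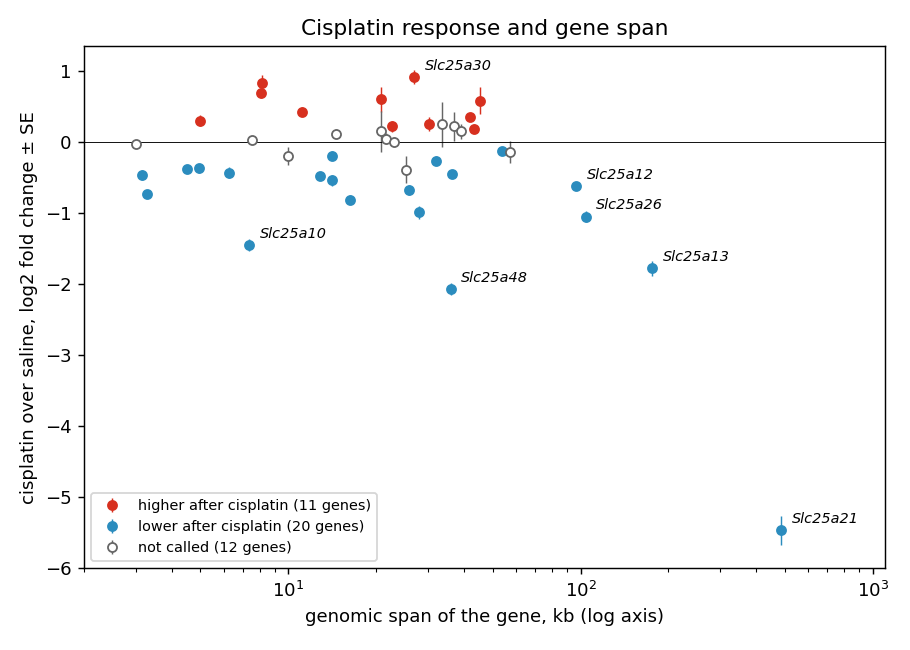
Log2 fold change of cisplatin over saline for each tested member, with SE bars, against its genomic span in kb on a log axis. The 4 members of 90 kb or more lie below 0, Slc25a21 lowest at -5.47, while shorter members lie on both sides of 0.

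Genes that work beside the carriers were counted from lists of import machinery, other mitochondrial transporters and partner enzymes. With cisplatin, 23 of 40 partner enzymes fell, 7 rose and 10 were not called (75.0%, median -0.26), against the 60.1% of all genes. The enzymes that handle the cargo of Slc25a21 fell too: Aadat, which makes 2-oxoadipate, by 0.77, Dhtkd1, which oxidises it, by 1.49, and Gcdh, which acts after it on glutaryl-CoA, by 1.18. Their interactions were 0.66, 0.92 and 0.55. Gatm, the mitochondrial enzyme that starts creatine synthesis from arginine and glycine, averaged 54.2 ± 7.80 CPM in cisplatin mice and 723 ± 31.3 CPM in saline mice (SD, n = 3 each), a log2 change of -3.74 (SE 0.12, adjusted p = 3.9e-11). In the coenzyme A pathway served by Slc25a42, Pank1 fell by 2.02 and Coasy by 0.57. Mat2a, which makes S-adenosylmethionine, fell by 0.79. Chdh, which oxidises choline inside mitochondria, fell by 0.36. In the malate-aspartate shuttle Mdh1 fell by 0.81 and Got1 by 0.30, while Got2 rose by 0.17. Enzymes that rose included Arg2, the mitochondrial arginase, at 2.30 (SE 0.09, adjusted p = 3.5e-10), and Mthfd2, of mitochondrial folate metabolism, at 2.22 (SE 0.15, adjusted p = 3.3e-08). In the combination against cisplatin, 25 of the 40 were higher and 3 lower, where 18.1% of all genes were higher and 13.5% lower.

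Of 21 other mitochondrial transporters and channels, 15 fell with cisplatin, 3 rose and 3 were not called (85.7%, median -0.31), against 60.1% of all genes called. The largest was the fall of Sfxn5, a sideroflexin, by 2.15 (SE 0.07, adjusted p = 3.6e-11). The outer membrane channel Vdac1 fell by 0.70. In the combination against cisplatin 15 of the 21 were higher, Sfxn5 by 1.17 among them, and 1 was lower, where 18.1% of all genes were higher and 13.5% lower. Of 13 genes of the import machinery, 6 fell, 1 rose and 6 were not called (53.8%, median -0.10), a share near the 60.1% of all genes. The small TIM chaperone gene Timm9 fell by 0.97, Agk, a subunit of TIM22, by 0.63, the channel Timm22 by 0.54 and the receptor Tomm20 by 0.31. Of 4 tested carrier relatives with other names, 1 rose, 2 fell and 1 was not called with cisplatin. Mtch1 and Mtch2, proteins of the outer membrane, fell by 0.25 and 0.21, and Ucp3 was not called at 1.02 (SE 0.51, adjusted p = 0.10). Ucp2, which exports C4 metabolites, averaged 161 ± 11.7 CPM in combination mice, 159 ± 16.9 in cisplatin mice, 70.7 ± 11.2 in dichloroacetate mice and 63.0 ± 7.98 in saline mice (SD, n = 3 each). Its log2 fold change was 1.34 (SE 0.12, adjusted p = 4.7e-07) in cisplatin against saline and 0.02 in combination against cisplatin, which was not called. Dichloroacetate alone called no gene of these 4 lists.

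Some members share exon bases with a neighbour, and the counting is not stated to use strand, so reads in the shared part cannot be assigned. Slc25a35 shares 31.3% of its exon bases with Rangrf on the opposite strand, Slc25a33 14.9% with Gm13068, Slc25a11 8.92% with Rnf167, Slc25a46 7.06% with B930094E09Rik, Slc25a10 6.60% with Gm11788 and Slc25a21 3.88% with Pax9. Gm11788, antisense to Slc25a10, averaged 31.6 CPM in combination mice, 15.9 in cisplatin mice, 43.1 in dichloroacetate mice and 42.9 in saline mice. The other 7 overlaps covered less than 5% of the member's exon bases. Among them, 1 joins the low Slc25a18 (1.67% of its exon bases) to Atp6v1e1, which averaged 159 CPM in combination mice, 133 in cisplatin mice, 199 in dichloroacetate mice and 199 in saline mice, and how much of the level printed for Slc25a18 comes from such reads was not tested. Slc25a5 has a pseudogene, Slc25a5-ps, with which it could share reads, at 0.125 to 0.326 CPM a library.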

How the data were processed

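Whole-kidney RNA was sequenced from 12 mice. Per the labels' protocols, libraries were made with a TruSeq RNA kit. Build mm10 is given by the submitters' processing notes, which also name the tools DESeq, HTSeq, TopHat, Cufflinks, bedtools and Trimmomatic without versions or roles. The authors deposited a table of read counts per Ensembl gene and a normalised table (signal), whose 12 columns equal the counts over a median-of-ratios size factor (tolerance 1e-04). The counts were used throughout, and the signal for 1 alternative.

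Identifiers were matched to GENCODE M21 (27955 of 28991). Genes passing filterByExpr (20370) were tested with edgeR 4.0.16 (R 4.3.3), quasi-likelihood test, after TMM scaling, in 1 model with a mean for each of the 4 groups (8 residual degrees of freedom, biological coefficient of variation 0.0917). Tests are 2-sided and adjusted by Benjamini-Hochberg over all genes tested. The procedure was tested on simulated data in which a small share of genes changed, equally up and down, for cisplatin against saline only. The simulation did not cover a change in most genes or the interaction. Replicates of a group differed by 4.4 to 26.3 chi-square per degree of freedom, so each library was counted once. The labels call them biological replicates. For members with many counts, the 3 mice per group, more than depth, limit precision. Depth limits it too for members with few counts, such as Slc25a18, with 9 to 19 counts a library. Alternatives were RLE size factors, no filter, DESeq2 1.42.0, limma 3.58.1 on log2(normalised signal + 1), a replicate block, 2-group fits and leaving out each library.

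The members, the substrate classes and the lists of neighbouring genes were chosen with earlier results of these data known. Members named with values are the 8 largest rises and falls with cisplatin, the 6 largest changes in each direction for the combination against cisplatin and for dichloroacetate against saline, all interaction calls and the 6 highest levels per kb of exon, with further members given to account for each class. From the lists, the 4 largest changes and direct partners of named carriers are given. A member and some listed genes enter the counts and all-gene fits but are not reported here.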

Additional observations from a re-analysis of the deposited data

Results flagged for a closer look

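The response to cisplatin differed between mice with and without dichloroacetate, by the interaction term of the edgeR fit, for 16 members. Each value is the log2 response with dichloroacetate minus that without it. It was 2.68 for Slc25a21, 1.11 for Slc25a48, 1.06 for Slc25a10, 0.96 for Slc25a13, 0.67 for Slc25a26, 0.63 for Slc25a23, 0.52 for Slc25a36 and 0.51 for Slc25a42. Smaller positive values included those of Slc25a11 (0.39), Slc25a12 (0.37), Slc25a16 (0.32), Slc25a4 (0.30) and Slc25a5 (0.29). Negative values were those of Slc25a32 (-0.37) and Slc25a45 (-0.32). All 14 members with a positive value had fallen with cisplatin in mice without dichloroacetate. The interaction subtracts that response, so the fall and the positive value are not independent. Of the 2 with a negative value, Slc25a45 had risen and Slc25a32 had not been called.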

How the results depend on the processing

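Under RLE size factors, no filter on low counts, DESeq2, limma, the replicate block and fits of 2 groups only, the counts of members called stayed within 1.5 times the values reported, apart from 2 small counts. Members lower in the combination than in cisplatin numbered 2, against 1 with no filter and 4 with 2 groups only. Negative interactions numbered 2, against 0 with no filter and 1 with the replicate block. When each library was left out in turn, the ranges for cisplatin against saline were 8 to 11 higher and 18 to 21 lower, and for the combination against cisplatin 15 to 18 higher and 1 to 3 lower. For the combination against saline they were 6 to 11 higher and 10 to 13 lower, for the combination against dichloroacetate 7 to 9 higher and 12 to 15 lower, and for the interaction 10 to 15 positive and 0 to 1 negative. The lowest counts came without combination replicate 3 (6 higher than saline) and without cisplatin replicate 1 (10 positive interactions). Dichloroacetate against saline stayed at 0. The direction of change was checked for members named by size of change and for all interaction calls. None reversed under RLE size factors, DESeq2, the replicate block or any left-out library. Beside the lost calls given with the results, leaving out 1 library ended those of Slc25a12 (4 of 12 fits), Slc25a16 (3) and Slc25a35 (3) in the combination against saline, and those of Slc25a35 (8), Slc25a5 (7) and Slc25a23 (2) in the combination against dichloroacetate. Fits of 2 groups only ended those of Slc25a25, Slc25a3 and Slc25a34 in the combination against saline, and limma the interactions of Slc25a5 and Slc25a16. With no filter, the calls of Slc25a12 against saline, of Slc25a35 against dichloroacetate, of Slc25a32 against cisplatin and the interactions of Slc25a32 and Slc25a45 were lost. Over all genes, dichloroacetate against saline gave 26 higher and 37 lower with edgeR, against 182 and 154 with DESeq2. Same-numbered mice of different groups deviated together little (18 pairs, correlation -0.10 to 0.15, 4 over 0.1). Between dichloroacetate and combination mice, same-numbered pairs gave 0.08, 0.14 and 0.15, all above the unlike-numbered pairs (-0.13 to 0.01). No other 2 groups showed this. The labels do not say that the numbers pair mice, and they were not taken to do so. Under the replicate block the calls lost were the interaction of Slc25a32 (adjusted p = 0.050) and that of Slc25a35 in the combination against dichloroacetate. The cause of these shifts was not tested.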
